A study of Mus musculus with 8 samples.

Results

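The genes of the T-cell receptor complex and of its first signalling steps were examined for H3K9ac, an acetylation of histone H3 found at active promoters. They comprise 10 of 21938 protein-coding genes, chosen by name: *Cd3e*, *Cd3d*, *Cd3g*, *Cd247*, *Cd4*, *Cd8a*, *Cd8b1*, *Zap70*, *Lck* and *Lat*. These genes and the marker lists were chosen with earlier results of these data known. The shares over all genes beside them are therefore a description only. H3K9ac had been profiled by ChIP-seq in frozen bone marrow (BM) cells of *NUP98-HOXD13-tg* mice, a model of myelodysplastic syndrome that can progress to acute leukaemia. The labels and methods name BM cells and describe no sort for this assay, while a figure heading of the study speaks of c-kit+ cells. All mice of the 6 libraries carried the transgene. In *GFI1-36S* mice a human *GFI1* cDNA replaces the murine gene, *GFI1-36N* mice carry the variant with asparagine in place of serine, and *GFI1-KD* mice express less GFI1, a transcriptional repressor of blood cells. For each GFI1 form, 1 library came from vehicle-treated mice (labelled as without curcumin) and 1 from mice given curcumin weekly at 20 mg/kg by intraperitoneal injection. Ages are not given here, and the mice were taken when they showed leukaemia or reduced health. An input sample and a rabbit IgG sample were not used here. Each group has 1 library, so that the spread between mice of a group is unknown, and no test was run.

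The T-cell receptor recognises antigen through its variable chains, which cannot signal by themselves. Signals are passed on by the CD3 chains, encoded by *Cd3e*, *Cd3d* and *Cd3g*, and by the ζ chain encoded by *Cd247*. The coreceptors CD4 and CD8 bring the kinase LCK to the receptor, LCK phosphorylates the receptor tails, ZAP70 binds to them, and ZAP70 phosphorylates the adapter LAT, on which the further signalling proteins assemble. Most of these genes are active in T cells and their thymic precursors, which are a minor part of normal BM, while *Lat* is also used in mast cells and platelets.

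The library labelled *GFI1-36S* curcumin was set against the other 5, and it stood apart from them in other ways too. It had 20354 peaks, against 30784 to 49213 in the others, and 3 peaks on chromosome Y, where the others had 0. It had 0 peaks at *Xist*, where the others had 1 to 3. None of 15 neutrophil promoters had a peak in it, against 8 to 14 in the others, although BM is the labelled tissue. The names of the *GFI1-36S* peak lists carry the opposite treatments to the labels. The labels were followed here, so that the same library would be the vehicle library if the names were right. According to the names of the peak lists, the *GFI1-36N* allele was heterozygous in the vehicle library and homozygous in the curcumin library. The labels say nothing on this point. The lists hold only peaks above the threshold of the peak caller, so that a gene without a peak may still carry H3K9ac below it.

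A promoter was taken as the 1000 bp on each side of any annotated transcription start site (TSS), and a peak that overlapped it by at least 1 bp was a promoter peak. In the library labelled *GFI1-36S* curcumin, 9 of the 10 genes had a promoter peak. In the other libraries the number was 3 with *GFI1-36S* vehicle, 4 with *-36N* vehicle, 2 with *-36N* curcumin, 2 with *-KD* vehicle and 1 with *-KD* curcumin. Over all protein-coding genes, the library labelled *GFI1-36S* curcumin had the fewest promoters with a peak, 44.3% against 50.6% to 53.8%. *Cd3e*, *Cd3g*, *Cd4* and *Cd8b1* had a promoter peak in that library and in none of the other 5, as did 0.765% of the 12557 genes marked at the promoter in at least 1 library. *Cd8a* had none in any library.

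For comparison between lists of different length, each gene was given the promoter peak with its highest fold enrichment, and these peaks were ranked within the library, from 0 for no peak to 100 for the strongest. Fold enrichment is the authors' ratio of the fragments at the peak summit to the local background. The rank in the library labelled *GFI1-36S* curcumin was above the rank in each of the other 5 libraries for 9 of the 10 genes, all except *Cd8a*, and for 15.9% of all genes with a promoter peak. It was below each of the others for 0 of the 10 genes and for 44.3% of all genes. A rank below each of the others needs a peak in all 5 of them, which among the 10 genes only *Lat* had. The 0 was thus fixed for the other 9 genes. The median of the difference from the median rank of the other 5 libraries was 24.5 over the 10 genes and −5.05 over all genes. In bulk BM, more cells with the mark and more of the mark per cell cannot be told apart.

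**Figure D1:**
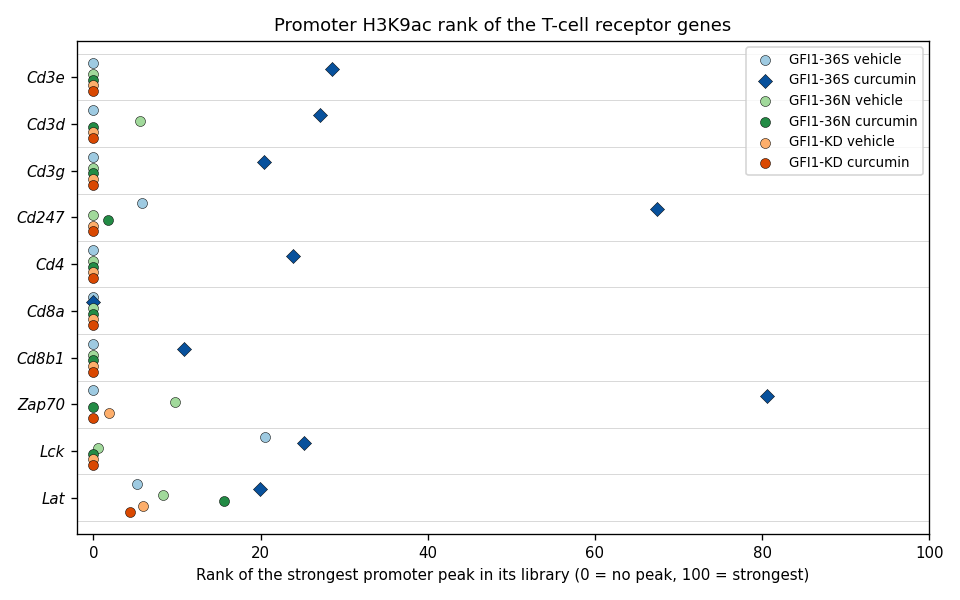
The horizontal axis gives the rank of the strongest promoter peak of each gene within its library (0 for no peak, 100 for the strongest), and each row holds 1 gene with 1 point per library. The diamonds of the library labelled *GFI1-36S* curcumin lie between 10.8 and 80.6 for every gene except *Cd8a*, and to the right of all other points in those rows, by 4.66 for *Lck* and 4.31 for *Lat*.

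The CD3 chains are encoded by 3 neighbouring genes on chromosome 9 of mm10. *Cd3g* (44969572 to 44980431, minus strand) and *Cd3d* (44981786 to 44987339, plus strand) start 1355 bp apart and are transcribed away from each other, and *Cd3e* (44998740 to 45009627, minus strand) starts 27841 bp from *Cd3d*. At *Cd3e*, the library labelled *GFI1-36S* curcumin had a peak of 2650 bp with a fold enrichment of 9.26, 51 fragments at the summit and rank 28.6, and the other 5 libraries had none. At *Cd3g*, its peak measured 1484 bp, with a fold enrichment of 7.84, 43 fragments and rank 20.4, again with none in the other libraries. At *Cd3d*, a peak of 2175 bp with a fold enrichment of 9.04, 72 fragments and rank 27.1 was found there. The *GFI1-36N* vehicle library also had a *Cd3d* promoter peak, of 769 bp, with a fold enrichment of 4.17, 28 fragments and rank 5.61. No peak covered both *Cd3g* and *Cd3d*, so that each of the 3 genes had a peak of its own. The TSS of the gene *Gm48720*, whose type is not assigned in the annotation, also lay inside the *Cd3e* peak.

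*Cd247*, on chromosome 1 (165788681 to 165877277, plus strand), encodes the ζ chain, which carries more signalling motifs than the other chains. Its promoter peak in the library labelled *GFI1-36S* curcumin measured 3768 bp, the widest of the 10 genes, with a fold enrichment of 15.4, 102 fragments and rank 67.4. The *GFI1-36S* vehicle library had a peak of 240 bp with a fold enrichment of 4.52, 31 fragments and rank 5.87, and the *GFI1-36N* curcumin library one of 669 bp with 3.27, 24 fragments and rank 1.76. The other 3 libraries had none. The promoters of *Cd3e* and *Cd247* are shown because the whole window of 300 bases lay inside a peak of the library labelled *GFI1-36S* curcumin and outside the peaks of the other 5. Both windows cover 250 bases before the start of the RefSeq transcript and 50 from it on (GRCm38.p6, chr9:45009562-45009861 on the minus strand and chr1:165788431-165788730 on the plus strand). They are written 5′ to 3′, with the letters of the motifs named further on in capitals.
Cd3e: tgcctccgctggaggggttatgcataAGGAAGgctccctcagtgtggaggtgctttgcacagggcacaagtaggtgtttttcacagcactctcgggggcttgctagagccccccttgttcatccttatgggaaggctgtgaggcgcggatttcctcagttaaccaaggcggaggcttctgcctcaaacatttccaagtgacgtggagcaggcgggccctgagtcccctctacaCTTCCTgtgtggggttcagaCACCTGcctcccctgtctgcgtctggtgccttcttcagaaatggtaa
Cd247: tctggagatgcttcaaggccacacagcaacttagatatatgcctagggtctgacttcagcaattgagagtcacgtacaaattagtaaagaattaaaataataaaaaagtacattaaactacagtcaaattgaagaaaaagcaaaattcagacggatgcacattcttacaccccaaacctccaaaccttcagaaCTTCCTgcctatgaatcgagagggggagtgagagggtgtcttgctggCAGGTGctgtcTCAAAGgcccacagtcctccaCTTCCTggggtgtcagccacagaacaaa

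Of the 3 coreceptor genes, *Cd4* and *Cd8b1* had a promoter peak and *Cd8a* had none. *Cd4*, on chromosome 6 (124864692 to 124888221, minus strand), encodes the coreceptor of helper T cells. Its promoter had a peak of 1268 bp with a fold enrichment of 8.55, 68 fragments and rank 23.9 in the library labelled *GFI1-36S* curcumin and none in the other libraries. A separate peak beyond the 3′ end of *Cd4* was present in all 6 libraries, with folds between 3.17 and 4.99. Its summit lay between 20 and 221 bp from a TSS of *Gpr162*, the neighbouring gene. *Cd8b1* (71322788 to 71337494, plus strand) and *Cd8a* (71373427 to 71379173, plus strand), which encode the chains of the coreceptor of cytotoxic T cells, start 50639 bp apart on the same chromosome. *Cd8b1* had a peak of 463 bp with a fold enrichment of 5.88, 32 fragments and rank 10.8 in the library labelled *GFI1-36S* curcumin, the lowest rank of the 9 genes. A TSS of *Smyd1*, a muscle gene, lay 785 bp from its summit. At *Cd8a*, neither the promoter nor the gene body held a peak in any library. The promoter of *Cd8a* is shown for contrast, as the only one of the 10 genes without a peak (chr6:71373177-71373476, plus strand).
Cd8a: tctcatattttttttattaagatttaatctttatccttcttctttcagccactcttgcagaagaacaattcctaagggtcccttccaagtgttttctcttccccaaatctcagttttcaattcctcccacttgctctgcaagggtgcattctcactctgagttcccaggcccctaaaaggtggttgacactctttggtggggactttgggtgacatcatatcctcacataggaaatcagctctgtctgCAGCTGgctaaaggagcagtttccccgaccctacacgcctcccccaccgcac

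The kinase ZAP70 is encoded on chromosome 1 (36761798 to 36782818, plus strand). *Zap70* had the highest rank of the 10 genes. In the library labelled *GFI1-36S* curcumin its peak measured 2439 bp, with a fold enrichment of 18.2, 101 fragments and rank 80.6, which is place 1872 from the top of 9726 promoters. Weaker peaks were found with *GFI1-36N* vehicle (780 bp, fold 5.34, 38 fragments, rank 9.75) and with *GFI1-KD* vehicle (267 bp, fold 3.37, 24 fragments, rank 1.85). The summits of the peaks in the library labelled *GFI1-36S* curcumin and in the *GFI1-36N* vehicle library lay at the same distance from the TSS, 226 bp downstream, and that with *GFI1-KD* vehicle 348 bp downstream. *GFI1-36S* vehicle and both other curcumin libraries had no peak. The promoter at the annotated TSS of *Zap70* (chr1:36761548-36761847, plus strand) was covered over all 300 bases by the peak of the library labelled *GFI1-36S* curcumin and by none of the others.
Zap70: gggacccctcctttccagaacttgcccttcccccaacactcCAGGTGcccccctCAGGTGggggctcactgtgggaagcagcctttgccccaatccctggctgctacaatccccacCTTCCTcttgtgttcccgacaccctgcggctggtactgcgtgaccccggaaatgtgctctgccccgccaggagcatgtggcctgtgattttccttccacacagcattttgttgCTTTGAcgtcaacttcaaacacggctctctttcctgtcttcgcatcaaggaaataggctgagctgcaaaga

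*Lck*, on chromosome 4 (129548344 to 129573641, minus strand), encodes the kinase that starts the signal and is read from a distal promoter and from a proximal one, which starts 15250 bp further downstream. At the proximal promoter, the library labelled *GFI1-36S* curcumin had a peak of 2088 bp with a fold enrichment of 8.73, 48 fragments and rank 25.2, and its summit lay 123 bp downstream of the nearest TSS. The TSS of the microRNA gene *Mir8119* also lay inside this peak, 438 bp from its summit. At the distal promoter, the same library had a peak of 1740 bp with a fold enrichment of 7.48 and 41 fragments. Thus both promoters carried the mark in this library. In the other libraries the pattern was different. The *GFI1-36S* vehicle library had a peak of 213 bp at the distal promoter, with a fold enrichment of 3.21, and the *GFI1-36N* vehicle library one of 214 bp, with 2.99. Their stronger *Lck* peak lay inside the gene, past the proximal promoter. All 5 other libraries had this intragenic peak, with a summit between 16858 and 16904 bp from the distal TSS and a fold enrichment between 10.8 and 12.3. The proximal peak of the library labelled *GFI1-36S* curcumin ended at 16992 bp and so covered this position too, with its summit elsewhere. With *GFI1-36S* vehicle its edge reached 16158 bp, just within 1000 bp of the proximal TSS, which gave *Lck* rank 20.6 there. With *GFI1-36N* vehicle, *-36N* curcumin, *-KD* vehicle and *-KD* curcumin, the edge lay at 16361, 16423, 16290 and 16467 bp, just outside, and the ranks were 0.574, 0, 0 and 0. By fold enrichment, the *Lck* peak of 10.8 with *GFI1-36S* vehicle exceeded the 8.73 of the library labelled *GFI1-36S* curcumin. With a window of 3 kb, the difference of *Lck* from the median rank of the other 5 libraries was 0.745 in place of 25.2. The distal and the proximal promoter (chr4:129573592-129573891 and chr4:129558323-129558622, minus strand) are both shown, since all 300 bases of each lay inside a peak in the library labelled *GFI1-36S* curcumin alone.
Lck distal: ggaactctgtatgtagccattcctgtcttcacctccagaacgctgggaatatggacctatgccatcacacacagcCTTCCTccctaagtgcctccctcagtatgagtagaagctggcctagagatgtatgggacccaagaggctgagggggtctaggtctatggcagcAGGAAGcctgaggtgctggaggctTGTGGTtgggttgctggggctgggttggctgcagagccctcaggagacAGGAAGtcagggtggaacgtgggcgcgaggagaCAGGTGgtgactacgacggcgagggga
Lck proximal: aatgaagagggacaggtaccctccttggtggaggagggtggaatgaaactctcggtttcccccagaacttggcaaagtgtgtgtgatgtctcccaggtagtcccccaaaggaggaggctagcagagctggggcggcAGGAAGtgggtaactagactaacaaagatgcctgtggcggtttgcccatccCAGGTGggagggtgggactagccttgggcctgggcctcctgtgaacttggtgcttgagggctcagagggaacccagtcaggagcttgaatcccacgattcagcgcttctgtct

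*Lat*, on chromosome 7 (126363824 to 126369570, minus strand), encodes the membrane adapter and alone among the 10 genes was marked at the promoter in all 6 libraries. Its ranks were 5.26 and 19.9 with *GFI1-36S* vehicle and curcumin, 8.33 and 15.6 with *-36N*, and 5.89 and 4.36 with *-KD*. The library labelled *GFI1-36S* curcumin ranked highest, followed by *GFI1-36N* curcumin. In fold enrichment this order turned, with 7.71 (1454 bp, 69 fragments) for *GFI1-36S* curcumin and 7.96 (2212 bp, 45 fragments) for *-36N* curcumin. Fold enrichment is not normalized between libraries, and its median over all genes with a promoter peak was 12.5 in the library labelled *GFI1-36S* curcumin and 17.5 to 21.7 in the others.

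The promoter peaks of 9 genes in the library labelled *GFI1-36S* curcumin were compared with those of all genes. Their median width was 2088 bp, against 1064 bp for all genes with a promoter peak in this library, while their median fold enrichment was 8.73, against 12.5 for all genes. *Zap70* and *Cd247*, with folds of 18.2 and 15.4, lay above the median of all genes, and *Cd8b1*, with 463 bp, lay below the median width of all genes. In each of the other libraries, the median width of the peaks of these genes was below that of all genes, between 385 and 1440.5 bp against 1541 to 1963 bp. These medians rest on 1 to 4 peaks each, and the 385 bp are those of 1 *Lat* peak. With *GFI1-36N* curcumin, the *Lat* peak of 2212 bp was wider than the 1769 bp of all genes. In the library labelled *GFI1-36S* curcumin, the summits of the 9 genes lay downstream of the TSS, as they did for 79.3% of all genes.

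Gene bodies were examined next, from the first to the last annotated base. The 10 genes together span 211949 bp. Peaks covered 16.7% of these bases in the library labelled *GFI1-36S* curcumin. They covered 2.23% with *GFI1-36S* vehicle, 2.86% and 2.90% with *-36N* vehicle and curcumin, and 2.28% and 1.52% with *-KD* vehicle and curcumin. Over all protein-coding gene bodies, the library labelled *GFI1-36S* curcumin had the lowest share, 1.21%, against 1.96% to 2.87%. The covered bases exceeded those of each other library for 9 of the 10 genes, all except *Cd8a*, and for 3.78% of the 13853 genes with a peak in the gene body. The 10 genes held 36 peaks in that library, with summits of 31 in introns and of 5 in exons, and between 5 and 10 in the others.

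**Figure D2:**
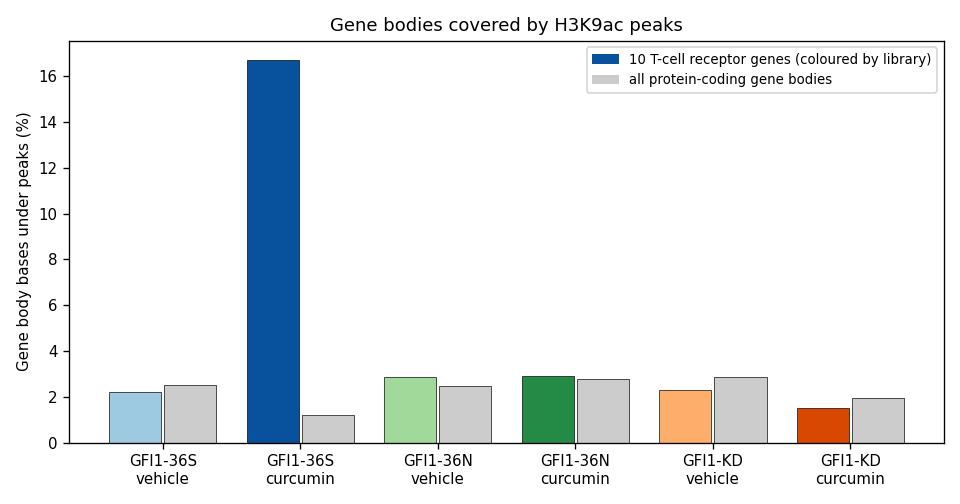
The vertical axis gives the percentage of gene body bases under H3K9ac peaks in each library, for the 10 T-cell receptor genes (coloured bars) and for all protein-coding genes (grey bars). The coloured bar reaches 16.7% in the library labelled *GFI1-36S* curcumin and at most 2.90% in the other 5, where it lies close to the grey bar.

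*Cd247* contributed the most peaks. Its gene body held 17 peaks in the library labelled *GFI1-36S* curcumin, covering 17.3% of the gene, and between 1 and 4 in the others, covering 1.07% to 3.25%. One intronic site of *Cd247* was marked in all 6 libraries, with a summit between 56229 and 56760 bp from the TSS and folds of 9.37 in that library and 5.20 to 8.31 in the others. The nearest TSS of another gene was that of *Gm32999*, 302 to 430 bp from the summit. With *GFI1-36N* curcumin it was that of *Gm37856*, 644 bp away. The type of both genes is not assigned in the annotation. At *Cd3d*, peaks covered 82.4% of the gene in the library labelled *GFI1-36S* curcumin and 18.7% to 40.6% in the others. The exons at the 3′ end of *Cd3d* carried peaks in every library. Here the folds of the other libraries, 6.10 to 15.6, mostly exceeded the 4.45 and 7.66 of the library labelled *GFI1-36S* curcumin. *Cd3e*, *Cd3g*, *Cd4* and *Cd8b1* had no peak in the gene body in any of the other 5 libraries. In the library labelled *GFI1-36S* curcumin, 21.6%, 13.7%, 9.01% and 3.15% of these genes were covered. Beside the *Lat* promoter, the *Cd3d* and *Cd247* gene bodies thus held sites marked in all 6 libraries, away from their promoters.

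**Figure D3:**
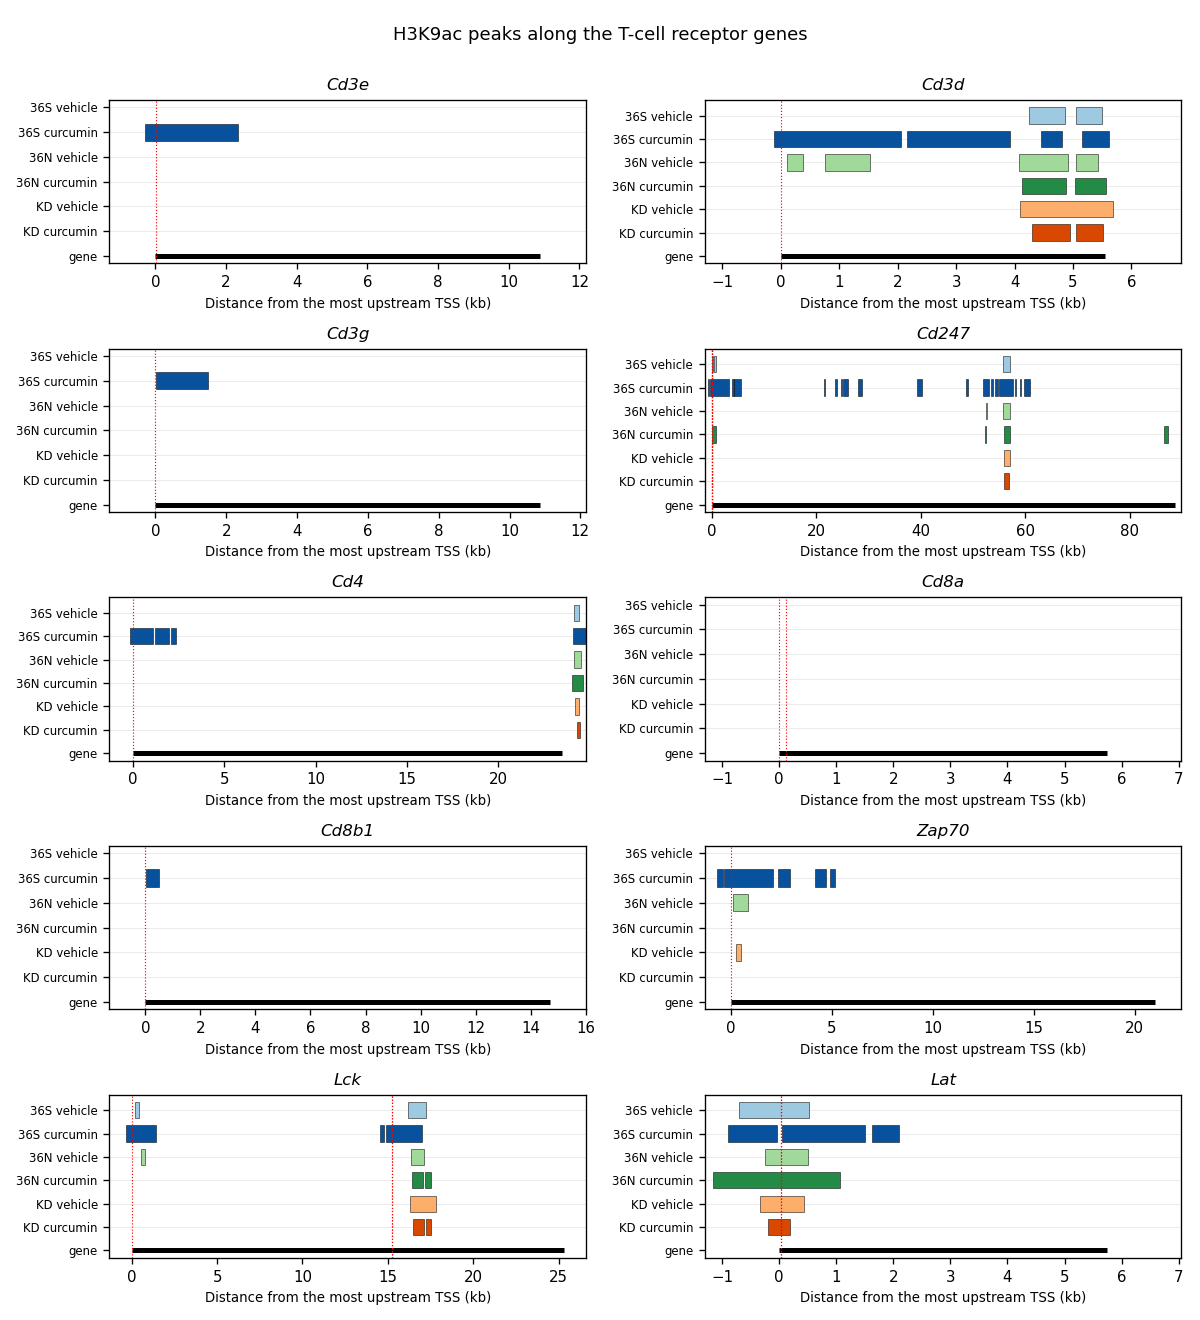
Each panel shows 1 gene, with the distance from its most upstream TSS in kb on the horizontal axis and 1 row per library. Boxes are H3K9ac peaks, the black bar is the gene and the dotted lines are annotated TSSs. Boxes at the TSS are widest in the library labelled *GFI1-36S* curcumin for *Cd3e*, *Cd3d*, *Cd247* and *Zap70*, the boxes at the 3′ end of *Cd3d* appear in all 6 rows, and *Cd8a* has none.

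Curcumin and vehicle were then compared within each GFI1 form. In *GFI1-36S* mice as labelled, a promoter peak was found with curcumin alone at 6 of the 10 genes (*Cd3e*, *Cd3d*, *Cd3g*, *Cd4*, *Cd8b1* and *Zap70*), and 0 with vehicle alone. Of all genes with a promoter peak in this pair, 1.99% had it with curcumin alone and 16.2% with vehicle alone. The rank was higher with curcumin for 9 genes, against 30.9% of all genes, and the median change was 22.1, against −5.04 over all genes. If the treatments are exchanged, following the names of the peak lists, the median change becomes −22.1. The libraries of this pair, as labelled, also differed in peaks on chromosome Y (3 with curcumin, 0 with vehicle) and at *Xist* (0 and 2). Of the 15 neutrophil promoters, 0 had a peak with curcumin and 14 with vehicle. What underlies these differences cannot be told apart from treatment in this pair.

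In *GFI1-36N* mice, the genes had weak peaks, and more were found with vehicle. Only *Cd247* gained a promoter peak with curcumin (5.73% of all genes), while *Cd3d*, *Zap70* and *Lck* lost theirs (1.84% of all genes). The rank was higher with curcumin for 2 of the 5 genes, *Cd247* and *Lat*, against 60.1% of all genes, and lower for 3. The 3 lost peaks had ranks of 5.61, 9.75 and 0.574 with vehicle. By the names of the peak lists, the *GFI1-36N* libraries also differ in zygosity, which cannot be told apart from treatment. In *GFI1-KD* mice, 0 genes gained a peak (1.19% of all genes) and *Zap70*, with rank 1.85, lost its peak (6.73% of all genes). Of the 2 genes with a peak in this pair, 0 had a higher rank with curcumin, against 37.1% of all genes, and 2 had a lower one. The median change of the 10 genes was 0 in both of these pairs, since most of them had no peak, and 1.45 and −1.84 over all genes. No member changed by more than 10 in rank in the *GFI1-36N* or *-KD* pair, and 8 did in the *GFI1-36S* pair. Vehicle ranks of the members reached at most 9.75 in the *GFI1-36N* and *-KD* pairs, so that no fall there could exceed 10. The share of all genes that changed by more than 10 was not computed.

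The constant regions of the receptor chains themselves were also examined, within 1 kb of each gene. *Trbc2*, a constant region of the β chain (chromosome 6, 41546730 to 41548352), had a peak of 4062 bp with a fold enrichment of 21.01 and 117 fragments in the library labelled *GFI1-36S* curcumin, and one of 913 bp with 4.93 with *GFI1-36N* vehicle. *Trbc1* had a peak of fold 3.34 in the library labelled *GFI1-36S* curcumin alone. *Trac*, the constant region of the α chain (chromosome 14, 54220521 to 54224206), had 5 peaks there, with folds up to 5.42, against 2 peaks up to 3.77 with *GFI1-36S* vehicle and 1 of 3.12 with *-36N* curcumin. Among the genes of the γ chain, *Tcrg-C4* had 3 peaks there with folds up to 14.7, and 6 with *GFI1-36N* vehicle with folds up to 3.62. *Tcrg-C2* followed the same order, with 12.1 and 3.74, while *Tcrg-C1* had a peak with *GFI1-36N* vehicle alone, of fold 3.31. *Trdc*, the constant region of the δ chain, had none. The *GFI1-KD* libraries had no peak at any of these genes.

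Of 46 further genes of T-cell receptor signalling, 41 had a promoter peak in the library labelled *GFI1-36S* curcumin and 28 to 36 in the others. Many of them, such as general adapters and kinases, are used in other blood cells too. Their median rank was 36.6 in that library and 10.6 to 12.7 in the others, but gene by gene the median difference from the median rank of the other 5 libraries was only 2.01, against 24.5 for the 10 genes. The rank was above each other library for 21 of them and below each for 10, against 15.9% and 44.3% of all genes. The 5 with the widest gap to the nearest other library were all higher there. *Sh2d2a*, which encodes a T-cell adapter, had rank 66.9, against 0 to 7.31 in the others. *Fyb*, an adapter linking the receptor to adhesion, had 80.3 against 9.62 to 26.0, and *Grap2*, whose product bridges LAT and SLP-76, had 63.8 against 0 to 10.4. The costimulatory receptor gene *Cd27* had 51.2 against 8.40 to 15.7, and *Prkcq*, which encodes protein kinase C θ, had 48.5 against 0 to 14.4. In the opposite direction, *Vav1*, an exchange factor of all blood cells, had 12.9 against 29.5 to 50.2 and was chosen after its values were seen.

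Markers of T cells and of the other cells that BM can hold were counted beside these values. The 6 protein-coding T-cell markers outside the 10 genes all ranked higher in the library labelled *GFI1-36S* curcumin than in each other one. Of all genes with a promoter peak, 15.9% did so. *Tcf7* had rank 90.8 against 3.18 to 7.62, and *Bcl11b* had 85.0 against 0 to 4.21. Both encode transcription factors of the T lineage. The other markers, *Cd2*, *Cd5*, *Cd6* and *Cd28*, were already counted among the further signalling genes above. The gap was narrowest at *Cd6*, with 4.12 against 0 to 3.03, and *Cd5* had 16.8 against 1.71 to 9.68. Of 10 NK cell markers, 1 had a promoter peak in the library labelled *GFI1-36S* curcumin (*Gzma*, rank 0.082) and 1 to 5 in the others, and the defining *Ncr1* and *Klrb1c* had none in any library. *Nkg7* had rank 0 there and 1.53 to 14.9 in the others. Of 10 B cell markers, 0 had a peak in the library labelled *GFI1-36S* curcumin and 1 to 4 in the others, with *Ms4a1* and *Pax5* at 0 in all 6. *Cd79b* had rank 0 in that library and 15.0 to 29.3 in the others. Fewer myeloid, erythroid and progenitor promoters had a peak in that library than in each of the others. Of 10 monocyte and macrophage markers, 1 had a peak there against 9 to 10, of 10 erythroid markers 2 against 5 to 10, and of 10 stem and progenitor markers 1 against 8 to 10. The rank lay below each other library for 44.3% of all genes with a promoter peak. It did so for 9 of the 10 monocyte and macrophage and 7 of the 10 stem and progenitor markers. With 8 of 15, the neutrophil markers were near the share of all genes, and the erythroid markers, with 3 of 10, were under it. *Tfrc*, the transferrin receptor gene, ranked above each other library, with 78.4 in that library against 43.4 to 72.4. *Kit*, which encodes c-kit, had no peak in that library and ranks of 7.27 to 33.4 in the others. The median rank was 0 for each of these 3 lists and for the neutrophil list in the library labelled *GFI1-36S* curcumin. In the others it lay between 1.29 and 16.4 for neutrophil, 14.6 and 24.5 for monocyte and macrophage, 0.491 and 27.0 for erythroid, and 11.4 and 25.5 for stem and progenitor markers. Of 8 mast cell and platelet markers, 0 had a peak there, against 1 to 5 in the others, with 5 in the *GFI1-36N* curcumin library. The part of the cell composition in the values of the 10 genes was not tested.

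**Figure D4:**
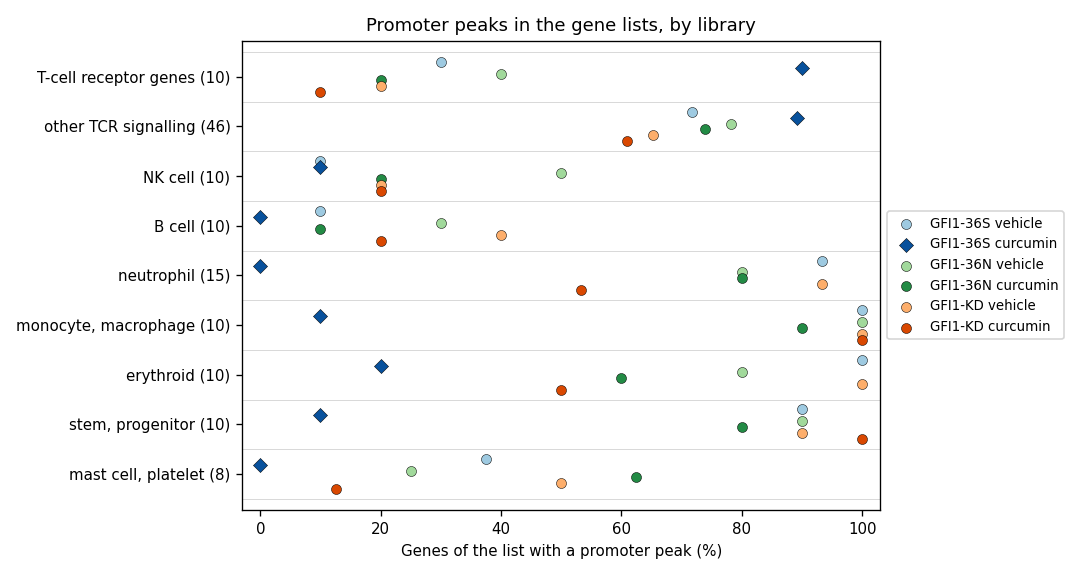
The horizontal axis gives the percentage of genes of each list with a promoter peak, with 1 point per library and the number of genes of the list in brackets. The library labelled *GFI1-36S* curcumin (diamonds) lies highest for the T-cell receptor genes, with 9 of 10, and lowest for the neutrophil list, with 0 of 15.

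Genes outside these lists were ordered by how closely their ranks in the 6 libraries followed the median ranks of the 10 genes (0, 24.5, 0, 0, 0 and 0). By Euclidean distance over the 6 ranks, the closest were *H2-Q2*, *Kdm5d* and *Eif2s3y* at 0.673, *St8sia1* at 0.905, *Colq* at 1.53, *Ryr2* at 1.81, and *Olig3* and *Tox2* at 2.97. *Kdm5d* and *Eif2s3y* lie on chromosome Y and encode a histone demethylase and a translation factor, and *H2-Q2* is a class I histocompatibility gene. With 6 libraries, a profile close to this one says only that a peak of moderate rank was found in the library labelled *GFI1-36S* curcumin and hardly any in the others.

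The promoter letters were searched on both strands for 5 short motifs of factors active in blood cells. RefSeq promoters were found for 8 of the 10 genes, all except *Cd4* and *Cd8b1* (11 entries, GRCm38.p6), and the shares refer to entries and to 32851 promoters of the same length. The ETS core AGGAAG was present in 8 of 11 entries and in 35.4% of all promoters, and the E-box CAGNTG in 10 of 11 and 51.4%. The RUNX motif TGTGGT was present in 3 and 16.8%, the TCF/LEF motif CTTTGA in 3 and 16.0%, and the GATA motif AGATAA in 1 and 11.2%. None of the 5 motifs contains another. The median GC content of the entries was 57.3%, against 52.7% of all promoters, with a median of 5 CpG dinucleotides against 7. In the sequences shown, *Cd3e* held its ETS letters at −224 and −17 from the start, the distal *Lck* promoter held 3 matches of ETS, and *Cd8a*, without a peak, held the E-box alone.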

How the data were processed

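H3K9ac ChIP-seq was performed with BM cells, 1 library per group. The authors trimmed adapters with Trim Galore, aligned to mm10 with BWA-MEM, used MACS2 on each library separately and filtered the peaks against the ENCODE black list. Picard, SAMtools and deepTools are also named in the submitters' processing notes. The control, threshold and treatment of duplicates are not given in the sources used here. The deposited lists hold the position of each peak and its summit, the integer score, the fold enrichment (a ratio) and the −log10 p and −log10 q of the peak caller, and the authors did not normalize these values between libraries.

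Genes and TSSs came from GENCODE M21 (basic annotation, GRCm38.p6), read with Python 3.11.15, numpy 2.4.6, pandas 2.3.3, scipy 1.17.1 and matplotlib 3.10.9. Ranks, covered bases and counts were computed from the lists. The lists carry no read totals. Fragments at each summit were recovered from fold and p, and 100% came out whole within 0.03 fragments. Where several solutions were possible, the one nearest to a whole number was kept, so that this share is no independent check. The median summit held 24 to 36 fragments and the genome background 4.61 to 6.13, which limits weak peaks. The steps were tested on simulated data.

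The 10 genes and all lists were chosen with earlier results of these data known. By the rule for names, all 10 genes were named, the constant regions, other TSSs inside the promoter peaks, the 5 genes of a list with the widest gap to the nearest other library and the 8 nearest profiles. Of the marker lists, not every gene under this rule is printed. No test was run. Alternatives were a minimum −log10 q of 5, equal numbers of top peaks (20354), a window of 3 kb, the summit inside the window, 1 TSS per gene, ranks by −log10 p, genes of all biotypes, each other library left out and the *GFI1-36S* treatments exchanged. TSSs of the comprehensive annotation were added after the data were seen.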

Additional observations from a re-analysis of the deposited data

Results flagged for a closer look

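For 4 of the 10 genes, the promoter rank changed in opposite directions with curcumin in different GFI1 forms. The share of all genes with such opposite changes was not computed. Over all genes, the median change was −5.04 for *GFI1-36S*, 1.45 for *-36N* and −1.84 for *-KD*. Some changes of the 4 genes were small, down to −0.574 at *Lck*. The differences at these 4 genes were not tested. Those that involve *GFI1-36S* depend on the labels of its lists and cannot be told apart from the other differences between its libraries. Those that involve *GFI1-36N* cannot be told apart from the difference in zygosity given by the list names. At *Zap70*, the change from vehicle to curcumin was 80.6 for *GFI1-36S* mice, −9.75 for *-36N* mice and −1.85 for *-KD* mice. At *Cd3d*, it was 27.1 in *GFI1-36S* and −5.61 in *-36N* mice. *Lck* changed by 4.66 in *GFI1-36S* and by −0.574 in *-36N* mice, and *Lat* by 14.6 for *GFI1-36S* mice, by 7.27 for *-36N* mice and by −1.53 for *-KD* mice.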

How the results depend on the processing

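No replicate block was fitted, since the labels give no replicate numbers. Vehicle and curcumin were paired within each GFI1 form by description, and no test across the 3 pairs was run. With the treatments as labelled, the number of members of the set with a promoter peak in *GFI1-36S* curcumin stayed between 8 and 9, the number ranked above each other library between 7 and 9, and the number with a peak in that library alone between 3 and 5. The median difference from the other 5 libraries lay between 17.6 and 26.7, and the median change in the *GFI1-36S* pair between 17.9 and 26.7, while those of *GFI1-36N* and *-KD* remained 0. The covered share of the gene bodies was 15.9% with a −log10 q of at least 5. With the *GFI1-36S* treatments exchanged, the library labelled curcumin counts as vehicle, by construction. The number with a promoter peak was then 3, the number with a peak in that library alone 0 and ranked above each other 0, the median difference 0, the median change in the pair −22.1 and the covered share 2.23%. *Zap70* then differed from the median rank of the others by −1.85 and *Lat* by −3.07. For single genes, *Lck* fell from 25.2 to 0.745 with a window of 3 kb and to 0.944 with the comprehensive TSSs, chosen after seeing the data, both of which include its intragenic peak in the other libraries. *Cd3d* gave 0 with the summit inside the window, 2.22 with the comprehensive TSSs and 39.1 with ranks by −log10 p, by which *Cd4* gave 34.7 and *Lat* 26.1. The cause of the last 3 was not tested. The lists hold no signal below the threshold, so that genes without a peak cannot be compared with each other.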
